A study of Mus musculus with 13 samples.

Results

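The 10 genes described here encode core proteins of autophagy and were chosen by symbol: Sqstm1, Nbr1, Map1lc3b, Gabarapl1, Gabarapl2, Atg5, Atg7, Atg12, Becn1 and Wipi1. They are 10 of the 22406 symbols measured by ribosome footprint profiling, which sequences the mRNA fragments covered by translating ribosomes. Mouse embryonic fibroblasts (MEFs) that were either PERK WT or PERK -/- were left untreated or were given thapsigargin (Tg), which empties the calcium store of the endoplasmic reticulum (ER), at 1 μM for 1, 2, 5 or 8 h. NIH3T3 cells, an established mouse fibroblast line, were left untreated or given 0.2 μM Tg for 2 or 7 h. PERK is the ER stress kinase that phosphorylates eIF2α, and the design asks which responses to ER stress need it.

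Each of the 13 conditions is 1 library, so no error between cultures is known, no test between conditions was made, and a difference between PERK WT and PERK -/- MEFs cannot be told apart from any other difference between those cultures. Levels are given in TPM (a gene's share of the coding footprints of a library, per coding length). A share gives relative and not total synthesis, so a gene may hold its share while the cell makes less of its protein, and in bulk libraries fewer cells that translate a gene and fewer footprints per cell cannot be told apart. Changes are log2 ratios of TPM against the untreated library of the same genotype or cell line, unless they are said to be of counts. Intervals are 95% intervals from the expected counts per library total and cover counting error only. A gene was called up or down when its TPM changed at least 2-fold.

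Autophagy encloses cytoplasm in a double membrane, the autophagosome, which then fuses with the lysosome. A lipid kinase complex that holds Becn1 marks the site of membrane growth with PI3P, which Wipi1 binds. Conjugation enzymes such as Atg7 and the Atg12-Atg5 conjugate then attach the ubiquitin-like ATG8 proteins (Map1lc3b, Gabarapl1, Gabarapl2) to the membrane, where cargo receptors such as Sqstm1 and Nbr1 dock with ubiquitinated cargo and are themselves degraded. Under ER stress, the PERK branch raises translation of the transcription factor Atf4, and several autophagy genes are known targets of Atf4 and of Ddit3 (CHOP).

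The libraries held between 2525029 (PERK WT, 2 h) and 14799515 (PERK -/-, 2 h) expected counts. All 10 genes passed the limit of a mean of at least 2 TPM, in MEFs (10432 genes) and in NIH3T3 cells (10117 genes). The stress reached both genotypes. Hspa5, the ER chaperone BiP, rose 5.27-fold in PERK WT and 2.66-fold in PERK -/- MEFs at 8 h, while Atf4 rose 16.7-fold in PERK WT and was 1.41-fold its control in PERK -/- MEFs. Eif2ak3, the gene of PERK, still carried 5.21 to 17.2 TPM in the PERK -/- libraries, and values per gene do not show from which exons these footprints came, so they do not check the genotype. All 8 fibroblast markers examined reached 2 TPM in each MEF library and 7 of 8 in each NIH3T3 library, with Col3a1 below. Of 10 markers of other cell types, at most 4 reached 2 TPM in any library, and the macrophage marker Adgre1 was at 0 in all 13. Their summed level ran from 61.4 to 153 TPM in PERK WT, 30.1 to 55.2 in PERK -/- MEFs and 35.6 to 50.5 in NIH3T3 cells, most of it from Tubb3, which was high in the PERK WT libraries at 5 and 8 h. The part of other cells in the results was not tested.

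Sqstm1, Nbr1, Becn1 and Wipi1 lie on chromosome 11 of the mouse genome (RefSeq, GRCm38.p6), Map1lc3b and Gabarapl2 on 8, Gabarapl1 and Atg7 on 6, Atg5 on 10 and Atg12 on 18. Sqstm1 spans chr11:50200152-50210820 and Nbr1 chr11:101552107-101581951. Both cargo receptor genes lay above the control in every PERK WT Tg library and below it in PERK -/- MEFs at 1 and 2 h. The 300 bases around their starts are therefore shown, from 250 before to 50 after the start of transcription and read in the direction of the gene. Capitals mark CCACG, one arm of the ER stress response element.
Sqstm1 (chr11:50210771-50211070, minus strand): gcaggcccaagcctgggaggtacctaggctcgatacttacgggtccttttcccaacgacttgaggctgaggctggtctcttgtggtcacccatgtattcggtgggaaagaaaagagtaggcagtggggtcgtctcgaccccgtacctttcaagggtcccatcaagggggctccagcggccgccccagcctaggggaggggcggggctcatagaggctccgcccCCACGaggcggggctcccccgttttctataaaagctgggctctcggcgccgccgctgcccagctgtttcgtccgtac
Nbr1 (chr11:101551857-101552156, plus strand): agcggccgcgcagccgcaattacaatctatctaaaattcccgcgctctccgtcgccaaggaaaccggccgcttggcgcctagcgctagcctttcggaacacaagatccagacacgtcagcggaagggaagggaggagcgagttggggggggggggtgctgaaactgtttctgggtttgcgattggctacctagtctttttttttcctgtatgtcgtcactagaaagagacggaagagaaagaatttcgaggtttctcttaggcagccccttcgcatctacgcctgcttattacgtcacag

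Promoters were found for 8 of the 10 genes (all but Becn1 and Atg12), 9 sequences in all, and were searched on both strands for 4 short motifs. CCACG occurred in those of Sqstm1, Atg5, Map1lc3b and Wipi1, and in 32.8% of the 32851 promoters in the table. TCACGTG, the core of the element bound by the lysosomal factors Tfeb and Tfe3, was found in that of Atg7 and in 3.77% of all. TGACNNNGC, the core of the antioxidant element bound by Nrf2, was found in that of Map1lc3b and in 12.4% of all. TGATGNAA, the core bound by Atf4 with C/EBP proteins, was found in 0 of the 9 and in 3.97% of all. These matches describe letters in a short window only.

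The cargo receptors were the members called up in PERK WT MEFs, and Sqstm1 had the largest change of the 10 genes. Sqstm1 (p62), which links ubiquitinated proteins to ATG8 proteins, stood at 209 TPM in untreated PERK WT MEFs and at 315, 567, 865 and 961 TPM after 1, 2, 5 and 8 h of Tg. In PERK -/- MEFs it stood at 319 TPM untreated and at 196, 198, 350 and 516 TPM at the same times. The PERK WT level was thus higher in every Tg library than in the control and highest at 8 h, whereas the PERK -/- level lay below its control at 1 and 2 h and above it at 5 and 8 h. In NIH3T3 cells Sqstm1 stood at 191 TPM untreated, 356 TPM at 2 h and 846 TPM at 7 h, so both Tg libraries lay above the control.

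**Figure D1:**
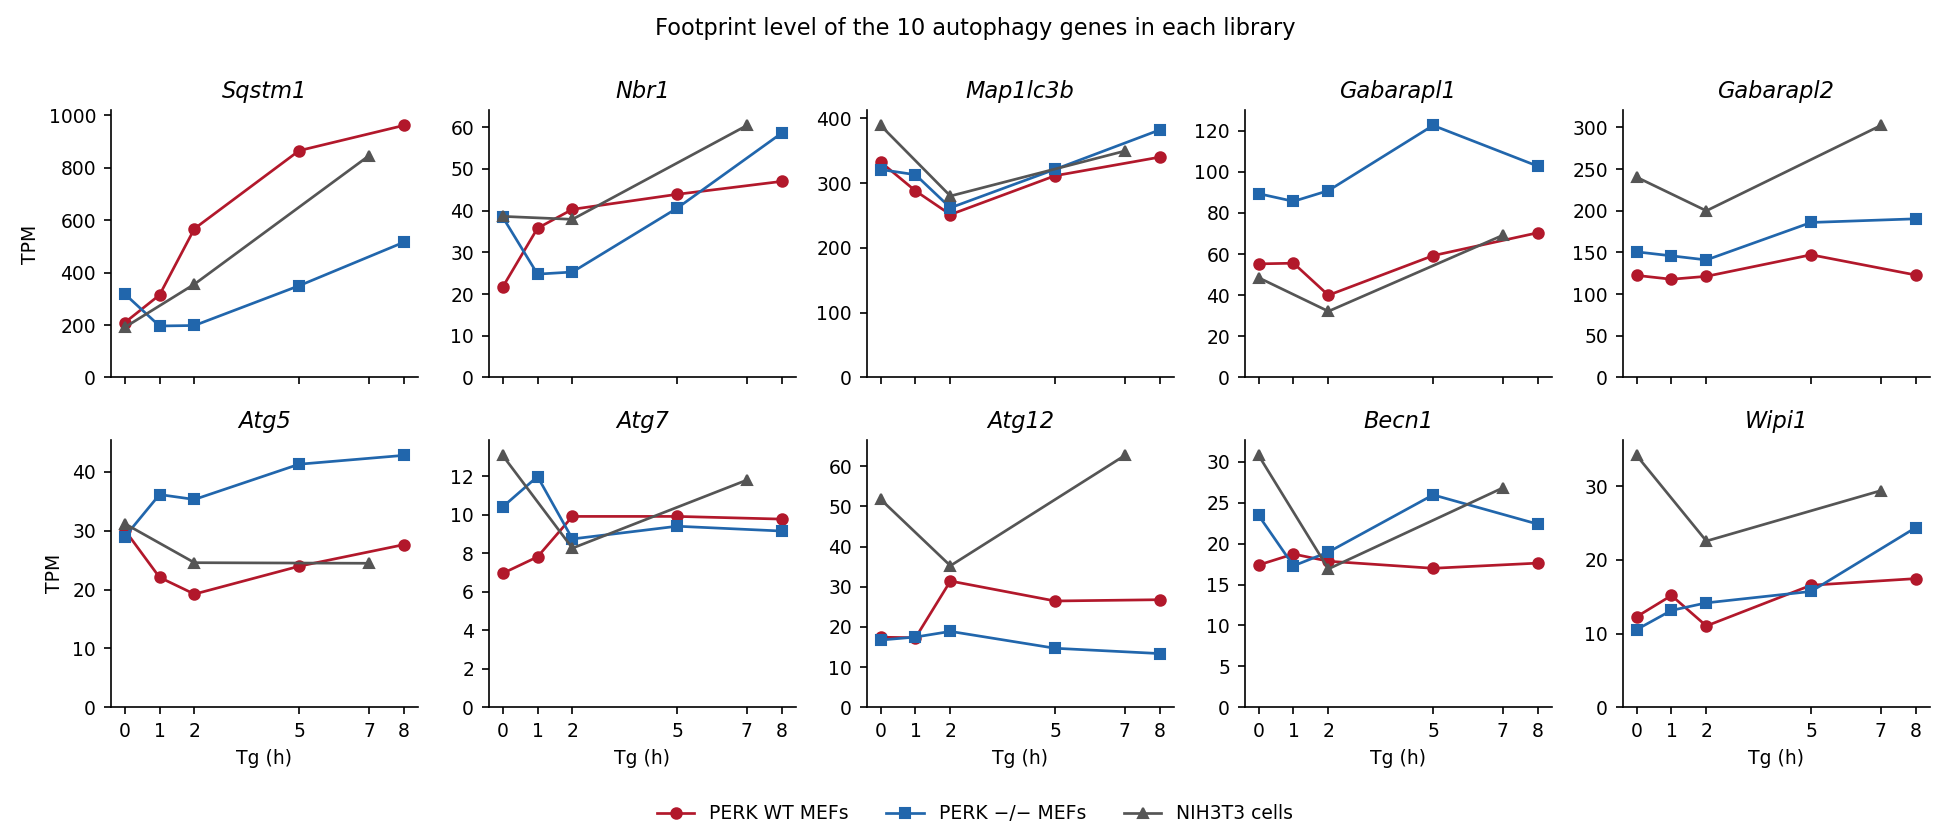
Level of each gene in TPM (vertical axis, from 0, a separate scale for each gene) against hours in Tg (horizontal axis, 0 is the untreated library), with 1 point per library for PERK WT MEFs (circles), PERK -/- MEFs (squares) and NIH3T3 cells (triangles). Sqstm1 climbed from 209 to 961 TPM in PERK WT MEFs, while Map1lc3b stayed between 252 and 382 TPM over the MEF libraries.

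The Sqstm1 change in PERK WT MEFs was 0.59, 1.44, 2.05 and 2.20 on the log2 scale, or 1.51-, 2.72-, 4.14- and 4.60-fold. At 8 h its expected counts went from 3317 to 14387, a log2 change of counts of 2.21 (2.16 to 2.27), and it ranked 59 of 10432 genes. The changes without PERK were -0.70, -0.69, 0.13 and 0.69, with a change of counts of 0.68 (0.61 to 0.75) at 8 h. With the trend of the changes on the GC content of the coding sequence removed, the early fall was smaller, at -0.43 at 1 h and -0.30 at 2 h. The PERK WT rise was then smaller too, at 0.48, 1.23, 1.78 and 1.89 at 1, 2, 5 and 8 h. The NIH3T3 changes were 0.90 at 2 h and 2.15 at 7 h (rank 63 of 10117). The 2 h value lay just under the 2-fold limit in TPM and just over it in counts (1.00, 0.91 to 1.09).

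The PERK WT change of Sqstm1 counts exceeded the PERK -/- change by 1.28 (1.17 to 1.40), 2.07 (1.97 to 2.18), 1.91 (1.82 to 2.00) and 1.53 (1.45 to 1.62) on the log2 scale at 1, 2, 5 and 8 h. All of these differences use the same pair of untreated libraries, and those already differed: untreated PERK -/- MEFs held 1.53-fold more Sqstm1 than untreated PERK WT MEFs (log2 of counts 0.61, 0.54 to 0.68). In levels, the PERK -/- cells held 0.62, 0.35, 0.40 and 0.54 of the PERK WT TPM at 1, 2, 5 and 8 h.

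Nbr1, a cargo receptor that also binds ubiquitin and ATG8 proteins, shared the directions of Sqstm1 in MEFs at a lower level. It stood at 21.6 TPM in untreated PERK WT MEFs and at 35.8, 40.3, 43.9 and 47.0 TPM at 1, 2, 5 and 8 h. Its PERK -/- levels were 38.5 TPM untreated and at 24.8, 25.3, 40.6 and 58.6 TPM. As with Sqstm1, each PERK WT Tg library lay above the control, and the PERK -/- libraries at 1 and 2 h lay below theirs.

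The changes of Nbr1 in PERK WT MEFs were 0.73, 0.90, 1.02 and 1.12. The value at 5 h lies at the 2-fold limit, and was 0.93 with counts thinned to the smallest library and 0.99 as log2(TPM + 1). Without PERK they were -0.64, -0.61, 0.08 and 0.61. The PERK WT change of counts exceeded the PERK -/- change by 1.35 (1.12 to 1.58) at 1 h and 1.47 (1.24 to 1.70) at 2 h, and by 0.96 (0.75 to 1.16) at 5 h and 0.58 (0.39 to 0.76) at 8 h. The untreated PERK -/- level was 1.78-fold the PERK WT level (log2 of counts 0.84, 0.69 to 0.99), and at 8 h the PERK -/- level was 1.25-fold that of PERK WT MEFs despite the smaller change. In NIH3T3 cells Nbr1 stood at 38.6 TPM untreated, 37.9 at 2 h and 60.4 at 7 h, a change of -0.03 and 0.65.

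The genes of the ATG8 proteins, which are joined to the autophagosome membrane, stayed under a 2-fold change against the control in every comparison. Map1lc3b (LC3B), the most used marker of autophagosomes, stood at 333 TPM in untreated PERK WT MEFs and at 288, 252, 312 and 340 TPM at 1, 2, 5 and 8 h. Without PERK it stood at 321 TPM untreated and at 313, 262, 321 and 382 TPM, and in NIH3T3 cells at 389 TPM untreated, 280 at 2 h and 350 at 7 h. Its level was lowest at 2 h in all 3 cell populations, where its change was -0.40 in PERK WT MEFs, -0.29 in PERK -/- MEFs and -0.47 in NIH3T3 cells. The longest annotated coding sequence of Map1lc3b, of 519 bases, has a high GC content (64.7%, against a median of 52.8% over the expressed genes). The deposited values rest mainly on a shorter form. In untreated PERK WT MEFs the counts per TPM of Map1lc3b lay between those of Gabarapl2 (351 bases) and Atg12 (423 bases). The GC content of the shorter form was not obtained, so the values with the GC trend removed use a sequence other than the one measured. With the GC content of the longest form, removal of the GC trend moved its change at 2 h to -0.82 in PERK WT MEFs and to 0.14 in PERK -/- MEFs. The change at 8 h in PERK WT MEFs moved from 0.03 to -0.51.

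Gabarapl1, an ATG8 protein of the GABARAP subfamily, stood at 55.2 TPM in untreated PERK WT MEFs and at 55.6, 40.0, 59.3 and 70.4 TPM at 1, 2, 5 and 8 h. MEFs lacking PERK held 89.4 TPM untreated and at 85.6, 90.9, 123 and 103 TPM, so each PERK -/- value lay above all PERK WT values. Before Tg the PERK -/- level was 1.62-fold that of PERK WT (log2 of counts 0.69, 0.38 to 1.00). In MEFs its changes ran from -0.47 at 2 h in PERK WT to 0.46 at 5 h in PERK -/- cells, and at the former 29 counts gave an interval of -1.08 to 0.11. The NIH3T3 levels were 48.5 TPM untreated, 32.2 at 2 h (28 counts, a change of -0.59) and 69.2 at 7 h. The change of counts at 7 h was 0.51 (0.17 to 0.86).

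Gabarapl2 (GATE-16), of the same subfamily, varied least of the 10 genes over the MEF Tg libraries, with changes from -0.10 to 0.34. It stood at 122 TPM in untreated PERK WT MEFs and at 118, 121, 147 and 123 TPM at 1, 2, 5 and 8 h. Its PERK -/- levels were 151 TPM untreated and at 146, 141, 186 and 190 TPM. In NIH3T3 cells it stood at 240 TPM untreated, 200 at 2 h and 302 at 7 h. The 7 h library lay above its control (0.33 in counts, 0.17 to 0.49), as did both late PERK -/- libraries.

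Among the conjugation genes, Atg5, which is joined to Atg12 to form the enzyme that places ATG8 proteins on the membrane, moved in opposite directions in the MEF genotypes. It stood at 30.1 TPM in untreated PERK WT MEFs and at 22.1, 19.2, 24.0 and 27.6 TPM at 1, 2, 5 and 8 h. MEFs lacking PERK held 28.9 TPM untreated and at 36.1, 35.3, 41.3 and 42.8 TPM. All 4 PERK WT Tg values were below the control and all 4 PERK -/- values above it, a pattern that 3.44% of expressed genes shared, and the untreated levels differed by less than the counting error (log2 of counts -0.20, -0.52 to 0.11).

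The changes of Atg5 were -0.45, -0.65, -0.33 and -0.13 in PERK WT and 0.32, 0.29, 0.51 and 0.56 in PERK -/- MEFs. No change reached 2-fold, but the PERK WT change of counts lay below the PERK -/- change by more than the counting error at each time, with differences of -0.96 (-1.47 to -0.46), -1.10 (-1.67 to -0.54), -1.10 (-1.56 to -0.65) and -1.01 (-1.43 to -0.59). TPM and counts gave unlike sizes for this gene: at 8 h in PERK WT MEFs the counts gave -0.45 (-0.73 to -0.17), and at 1 h in PERK -/- MEFs 0.59. With the GC trend removed the changes were nearer to each other, at -0.29, -0.43, -0.09 and 0.15 in PERK WT and 0.23, 0.17, 0.48 and 0.50 in PERK -/- MEFs, and the PERK WT value at 8 h was then above the control. In NIH3T3 cells Atg5 stood at 31.2 TPM untreated, 24.6 at 2 h and 24.5 at 7 h, below the control in both.

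**Figure D2:**
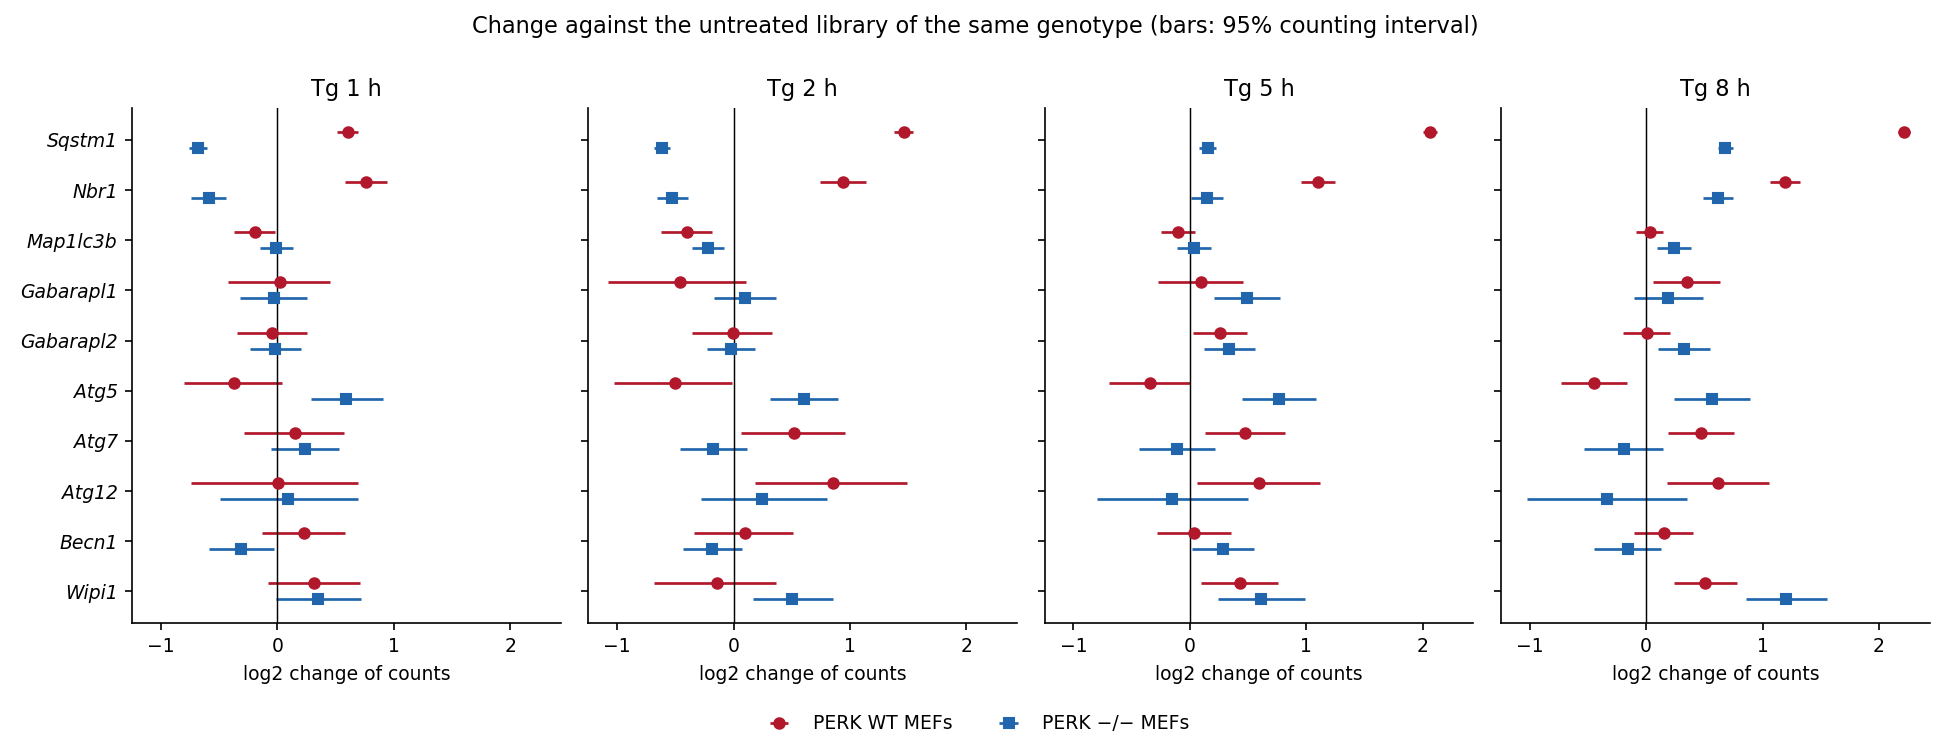
Log2 change of expected counts per library total (horizontal axis) for each gene (vertical axis) against the untreated library of the same genotype, in a panel for each time in Tg, for PERK WT (circles) and PERK -/- MEFs (squares). Bars are 95% counting intervals from 1 library per condition, and the Sqstm1 points lie apart at every time, at 2.21 and 0.68 at 8 h.

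Atg7, the E1-like enzyme that activates both Atg12 and the ATG8 proteins, was the lowest of the 10 in TPM. It stood at 6.96 TPM in untreated PERK WT MEFs and at 7.82, 9.92, 9.92 and 9.78 TPM at 1, 2, 5 and 8 h, above the control each time. Without PERK it stood at 10.4 TPM untreated and at 12.0, 8.75, 9.41 and 9.16 TPM. The PERK WT change of counts minus the PERK -/- change was -0.09 (-0.59 to 0.42) at 1 h, 0.69 (0.18 to 1.21) at 2 h, 0.59 (0.13 to 1.04) at 5 h and 0.66 (0.24 to 1.09) at 8 h, from untreated levels that were higher in PERK -/- MEFs (log2 of counts 0.54, 0.22 to 0.86), so that the levels at 8 h were close. In NIH3T3 cells Atg7 stood at 13.1 TPM untreated, 8.27 at 2 h and 11.8 at 7 h, below the control in both.

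Atg12, the ubiquitin-like partner of Atg5, stood at 17.5 TPM in untreated PERK WT MEFs and at 17.3, 31.4, 26.5 and 26.8 TPM at 1, 2, 5 and 8 h. Its PERK -/- levels were 16.8 TPM untreated and at 17.5, 18.9, 14.7 and 13.4 TPM. The PERK WT libraries from 2 h on thus lay above all PERK -/- libraries. Counts were few, 29 in PERK WT at 2 h and 36 in PERK -/- at 8 h, and the difference between the changes was 0.60 (-0.20 to 1.41) at 2 h, 0.75 (-0.05 to 1.54) at 5 h and 0.95 (0.18 to 1.72) at 8 h. In NIH3T3 cells Atg12 stood at 51.7 TPM untreated, 35.2 at 2 h and 62.7 at 7 h.

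Of the initiation genes, Becn1 (Beclin 1), a subunit of the class III PI3-kinase complex, stood at 17.4 TPM in untreated PERK WT MEFs and at 18.7, 17.8, 17.0 and 17.6 TPM at 1, 2, 5 and 8 h. These changes were 0.11, 0.04, -0.03 and 0.02 in TPM and 0.23, 0.09, 0.04 and 0.15 in counts. With counts thinned to the smallest library they were 0.77, 0.57, 0.64 and 0.38. The thinned values come from 1 random draw and share the same thinned control, so they do not show that the size was unstable. MEFs lacking PERK held 23.4 TPM untreated and at 17.3, 19.0, 25.9 and 22.4 TPM, and in NIH3T3 cells at 30.8 TPM untreated, 16.9 at 2 h and 26.8 at 7 h. The NIH3T3 change at 2 h, -0.86 in TPM and -0.72 (-1.10 to -0.35) in counts, was the lowest of any of the 10 genes in the 10 comparisons, in a library of 2569965 counts where the median of all expressed genes was -0.13.

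Wipi1, which binds PI3P on the growing membrane, stood at 12.3 TPM in untreated PERK WT MEFs and at 15.2, 11.1, 16.6 and 17.5 TPM at 1, 2, 5 and 8 h. Without PERK it stood at 10.6 TPM untreated and at 13.2, 14.2, 15.7 and 24.4 TPM. All 4 PERK -/- Tg libraries lay above their control, and the one at 8 h lay above every other MEF library. That change was 1.21 (2.31-fold, rank 181 of 10432), from 96 to 244 counts (1.20, 0.85 to 1.56), and the PERK WT change at 8 h was smaller by 0.69 (difference -0.69, -1.12 to -0.26). In NIH3T3 cells Wipi1 stood at 34.2 TPM untreated, 22.6 at 2 h and 29.4 at 7 h, below the control in both.

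**Figure D3:**
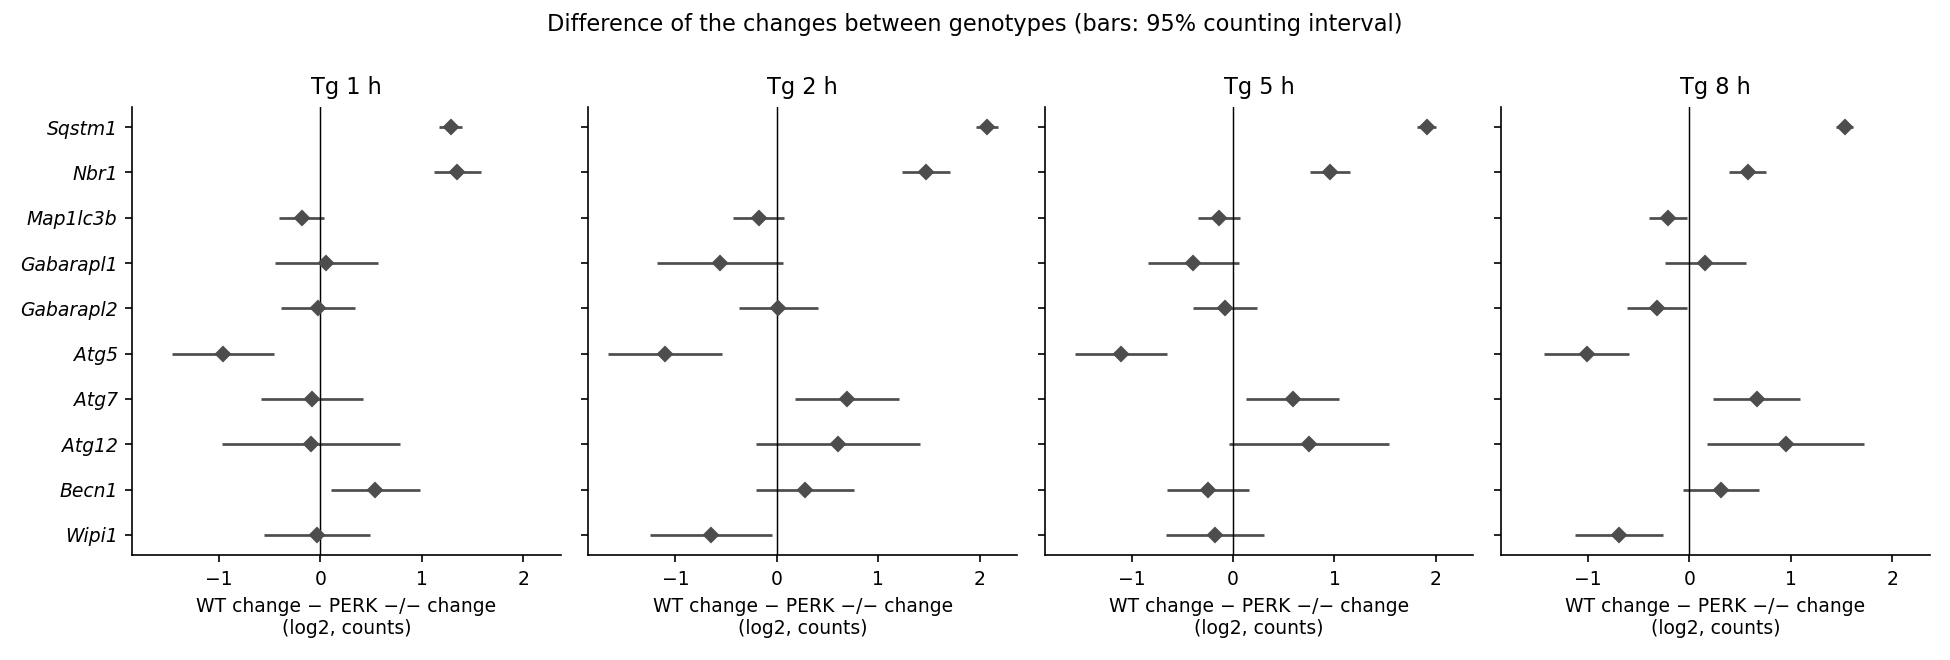
Log2 change of counts in PERK WT MEFs minus that in PERK -/- MEFs (horizontal axis) for each gene (vertical axis), in a panel for each time in Tg, with bars for the 95% counting interval. Sqstm1 and Nbr1 lie to the right of 0 at all 4 times and Atg5 to the left, at -1.01 at 8 h.

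As a group the 10 genes did not move as a block. In PERK WT MEFs 0 of 10 were up at least 2-fold at 1 h, beside 4.33% of expressed genes. At 2 h 1 was up (Sqstm1, beside 5.66%), and at 5 h (5.86%) and 8 h (6.45%) both cargo receptors were. In PERK -/- MEFs 0 were up at 1 h (0.719%), 2 h (0.623%) and 5 h (3.26%), and 1 at 8 h (Wipi1, beside 3.28%). In NIH3T3 cells 0 were up at 2 h (5.76%) and 1 at 7 h (Sqstm1, beside 7.01%).

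None of the 10 was down at least 2-fold in any of the 10 comparisons. The share of expressed genes that were down was 2.29%, 4.01%, 3.55% and 3.87% in PERK WT MEFs at 1, 2, 5 and 8 h, 3.38%, 5.78%, 4.77% and 2.73% in PERK -/- MEFs, and 3.76% and 8.06% in NIH3T3 cells at 2 and 7 h. The PERK WT change was at least 2-fold above the PERK -/- change for Sqstm1 and Nbr1 at 1 h (beside 10.6% of expressed genes) and 2 h (15.5%), and for Sqstm1 alone at 5 h (10.5%) and 8 h (7.14%). In 0 of the 10 genes was the PERK WT change at least 2-fold below the PERK -/- change in TPM, beside 3.6%, 5.13%, 5.54% and 5.77% of expressed genes at the 4 times. Between the untreated libraries 0 of the 10 differed at least 2-fold, beside 6.04% of expressed genes higher and 1.97% lower in PERK -/- MEFs.

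Directions held over time for some of the genes. Sqstm1, Nbr1 and Atg7 lay above the control in all 4 PERK WT Tg libraries, as did 29.7% of expressed genes, and Atg5 lay below it in all 4, as did 27.5%. Atg5 and Wipi1 lay above the control in all 4 PERK -/- Tg libraries, beside 11.6%, and 0 of the 10 lay below it in all 4, beside 18.6%. The pattern of above in all PERK WT and below in all PERK -/- Tg libraries was met by 0 of the 10 and by 4.53% of expressed genes. Nothing particular to the list is read from these counts.

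The median change of the 10 genes in PERK WT MEFs was 0.06, 0.01, 0.35 and 0.42 at 1, 2, 5 and 8 h, beside medians of all expressed genes between 0 and 0.01. Without PERK it was -0.04, -0.17, 0.14 and 0.29, beside -0.06, -0.11, 0 and 0.04. At 8 h 9 of the 10 lay above the control in PERK WT and 7 in PERK -/- MEFs, beside 50.4% and 53.7% of expressed genes. Map1lc3b (0.03) and Gabarapl2 (0.01) were among the 9 and fell below the control with TMM (-0.06 and -0.09) and DESeq2 factors (-0.07 and -0.09), which leaves 7. In NIH3T3 cells the median was -0.51 at 2 h and 0.06 at 7 h, beside -0.13 and 0 for all expressed genes. At 2 h there 1 of 10 lay above the control, beside 35.1% of expressed genes. Nbr1 (-0.03) was not counted, but lay above the control in counts (0.08) and with TMM (0.12) and DESeq2 factors (0.14).

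**Figure D4:**
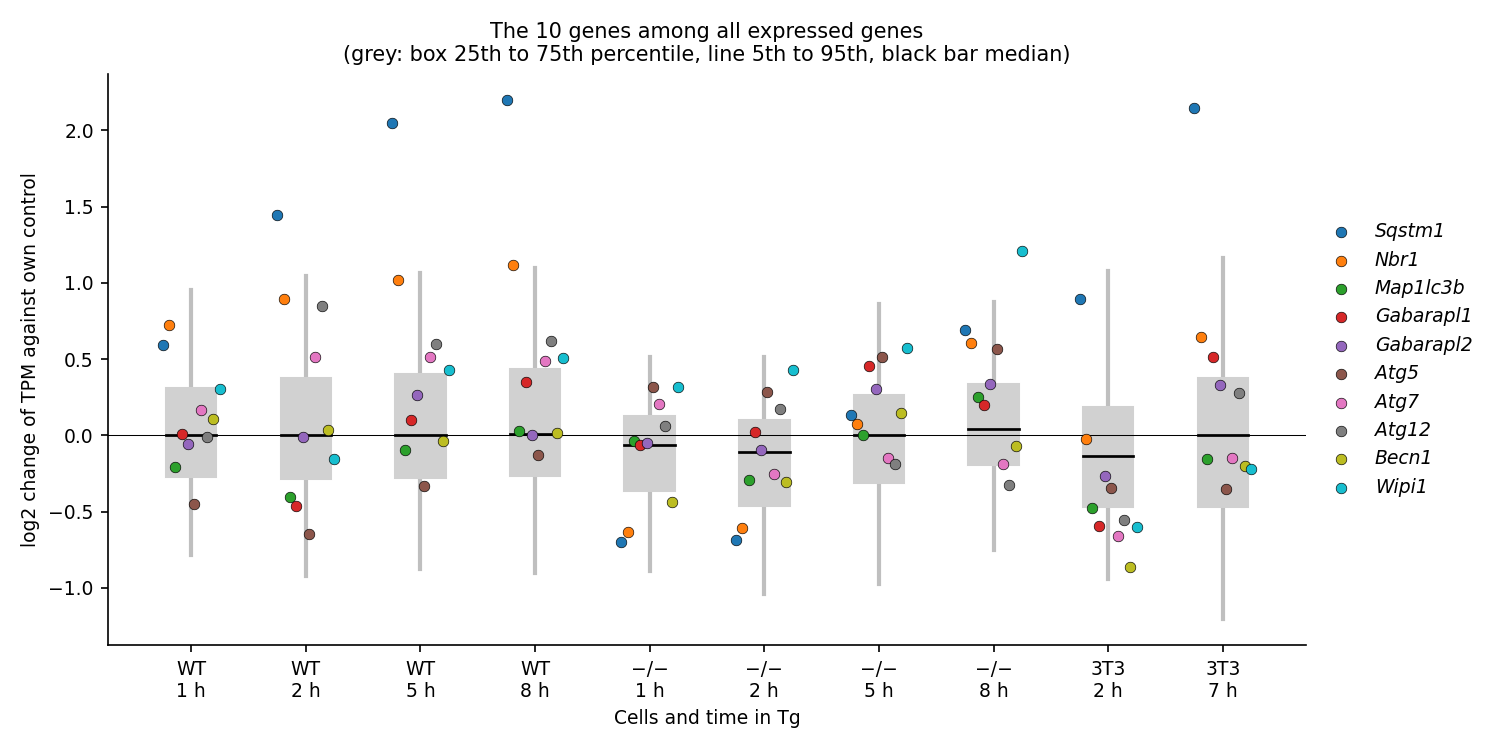
Log2 change of TPM (vertical axis) of each of the 10 genes (coloured points) in the 10 comparisons (horizontal axis: WT and -/- are MEFs, 3T3 are NIH3T3 cells), over the spread of all expressed genes (grey box 25th to 75th percentile, grey line 5th to 95th, black bar median). Sqstm1 lies above the 95th percentile in PERK WT MEFs from 2 h on and in NIH3T3 cells at 7 h. Nbr1 lies just above it in PERK WT MEFs at 8 h (1.12 against 1.10) and Wipi1 above it in PERK -/- MEFs at 8 h. The other points lie mostly within the grey line.

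Since no condition was repeated, neighbouring times give the nearest measure of spread. Between 5 and 8 h in PERK WT MEFs the log2 ratios of all expressed genes had an SD of 0.19, and those of the 10 genes ran from -0.26 (Gabarapl2) to 0.25 (Gabarapl1), with Sqstm1 at 0.15. Between 1 and 2 h the SD was 0.46 and Sqstm1 rose by 0.85. The SD between PERK -/- libraries was 0.30 between 1 and 2 h, with Sqstm1 at 0.01, and 0.54 between 5 and 8 h, with Sqstm1 at 0.56 and Wipi1 at 0.63. The late PERK -/- differences are thus of the size of the general spread between those libraries.

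The genes most like Sqstm1 over the 10 MEF libraries, among 4136 genes with at least 100 counts in each, were Vat1 (Pearson r of log2 TPM 0.985), Ap3d1 (0.983) and Vps72 (0.980). Their range was narrower, and Vat1 went from 123 to 225 TPM in PERK WT MEFs at 8 h and from 148 to 182 in PERK -/- MEFs. Those most like Nbr1 were Maged1 (0.973), Bcl9l (0.972) and Cpt1a (0.969), an enzyme of fatty acid import into mitochondria. Cpt1a went from 11.0 to 28.6 TPM in PERK WT MEFs at 8 h. Those most like Wipi1 were Ttc17 (0.888), Vcp (0.879), an ATPase that extracts ubiquitinated proteins, and Me1 (0.870). The libraries share genotype, time and depth, so these values describe likeness only.

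A wider set of 59 other autophagy genes, of which 58 passed the limit in MEFs and 55 in NIH3T3 cells, showed how far the pattern of the 10 extended. In PERK WT MEFs 0, 1, 5 and 5 of the 58 were up at least 2-fold at 1, 2, 5 and 8 h. The shares of expressed genes up were 4.33%, 5.66%, 5.86% and 6.45%. Down were 1, 1, 1 and 0 of the 58, beside 2.29%, 4.01%, 3.55% and 3.87% of expressed genes. At 8 h those up were Atg13, Wdr45, Foxo3, Tfe3 and Calcoco1, and the gene down was Fam134b each time. In PERK -/- MEFs 0, 0, 1 and 4 were up, beside 0.719%, 0.623%, 3.26% and 3.28%. Down there were 1, 3, 4 and 1, beside 3.38%, 5.78%, 4.77% and 2.73%. At 8 h those up were Atg13, Wdr45, Bnip3 and Stx17, so that Atg13 and Wdr45 were up in both genotypes. Calcoco1, Fam134b and Stx17 were named after their values were seen. In NIH3T3 cells 1 was up and 2 were down at each time. Of expressed genes, 5.76% were up and 3.76% down there at 2 h, and 7.01% up and 8.06% down at 7 h. The median over the set was 0.14 at 8 h in PERK WT and 0.30 in PERK -/- MEFs, beside the 0.42 and 0.29 of the 10 genes.

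Wdr45 (WIPI4), a PI3P-binding relative of Wipi1, had the largest rise of the set in PERK WT MEFs, from 14.0 to 38.8 TPM at 8 h (2.77-fold, log2 of counts 1.40, 1.13 to 1.67). It also rose in PERK -/- MEFs at 8 h, by 1.14 on the log2 scale. Tfe3, a transcription factor of lysosomal and autophagy genes, went from 19.5 to 42.9 TPM at 8 h (1.23 in counts, 1.05 to 1.41). Foxo3, a further transcription factor of autophagy genes, went from 9.21 to 20.5 TPM at 5 h (1.16 in counts, 0.89 to 1.42). Foxo3 was called up at 5 and 8 h in PERK WT MEFs, and Tfe3 at 8 h. At 5 h there the Tfe3 change was 0.99 in TPM, just under 2-fold, and 1.10 (0.89 to 1.31) in counts. The Sqstm1 change in TPM was 2.05 at that time. At 1 and 2 h the Tfe3 changes in TPM were 0.60 and 0.94, and those of Sqstm1 were 0.59 and 1.44. Tfe3 changed by -0.24, 0.02, -0.05 and 0.82 in PERK -/- MEFs at 1, 2, 5 and 8 h. In NIH3T3 cells at 7 h it rose by 0.92. Whether either factor acts on Sqstm1 was not tested.

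Atg13, a subunit of the ULK1 kinase complex, went from 10.9 to 23.5 TPM at 5 h in PERK WT MEFs (1.19 in counts, 0.89 to 1.49). Its change in TPM was 1.08 in PERK -/- MEFs at 8 h and 1.02 in NIH3T3 cells at 7 h. Epg5, a tether for fusion with the lysosome, went from 4.59 to 10.4 TPM at 5 h (1.12 in counts, 0.90 to 1.35). The mitophagy receptor Bnip3 went in PERK -/- MEFs from 63.7 to 167 TPM at 8 h (2.63-fold, 1.38 in counts, 1.16 to 1.61). The ER-phagy receptor Tex264 fell from 63.3 to 23.2 TPM at 2 h in the same cells (-1.37 in counts, -1.59 to -1.16).

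The remaining ATG8 proteins, Map1lc3a and Gabarap, had their largest changes at 8 h in PERK -/- MEFs, from 103 to 195 TPM and from 602 to 914 TPM. Those of the 10 genes in this family had smaller ones there, 0.25 for Map1lc3b, 0.20 for Gabarapl1 and 0.34 for Gabarapl2. Of 7 other genes of the kinase complex around Becn1, 0 lay above the control at 1 h in PERK -/- MEFs (median -0.39) and 4 in PERK WT MEFs (median 0.13). At 8 h 6 of 7 (median 0.32) and 7 of 7 (median 0.19) did. Of 9 membrane supply and PI3P effector genes, 0 lay above the PERK -/- control at 1 h (median -0.28) and 4 above the PERK WT control (median -0.09), and at 8 h 8 (median 0.57) and 6 (median 0.44) did. Of all expressed genes, 35.8% lay above the PERK -/- control and 46.5% above the PERK WT control at 1 h. At 8 h these shares were 53.7% and 50.4%, with medians of 0.04 and 0.01.

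**Figure D5:**
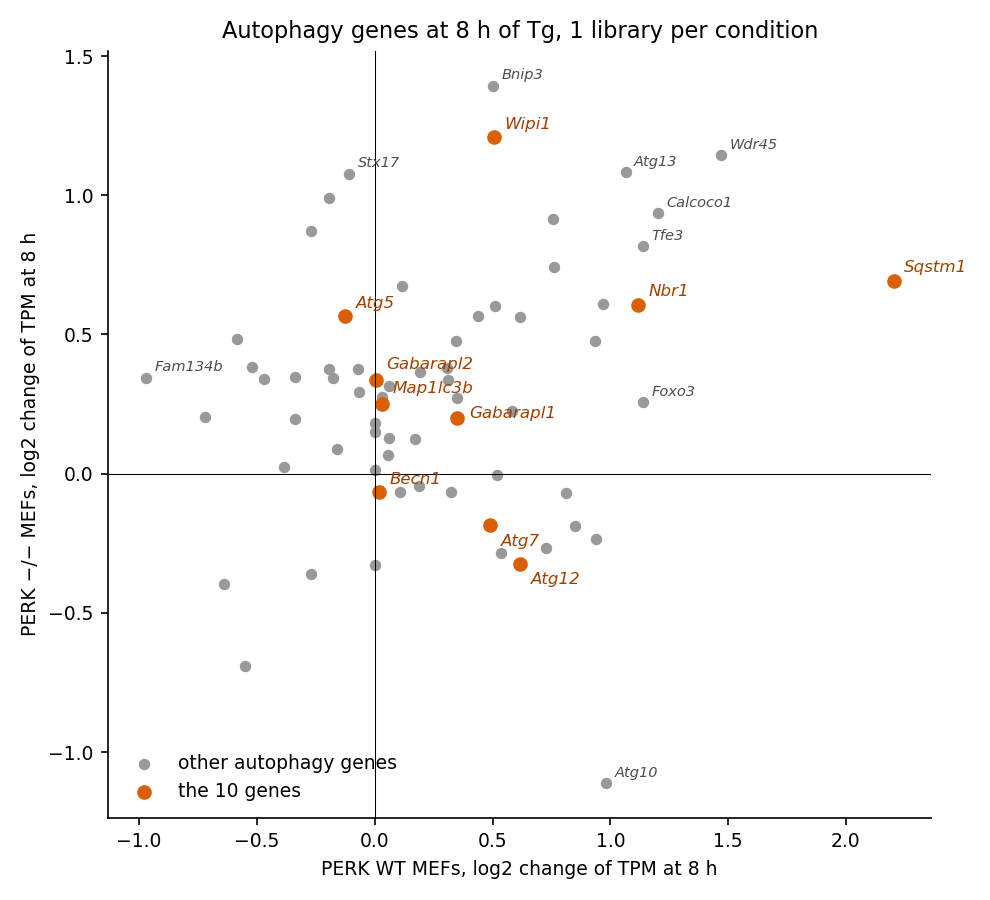
Log2 change of TPM at 8 h in PERK WT MEFs (horizontal axis) and in PERK -/- MEFs (vertical axis) for the 10 genes (large points, named) and the other autophagy genes that passed the limit (small grey points, some named), 1 library per condition. Sqstm1 is farthest to the right at 2.20 and 0.69, and Wipi1 lies near the top at 0.51 and 1.21.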

How the data were processed

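Ribosome footprints of 13 libraries, 1 per condition, were analysed. Per the methods, reads of rRNA and tRNA were filtered by STAR, and fragments of 22 to 34 nt were mapped (Bowtie2) onto mm10 RefSeq coding regions without their outer 30 nt, of at least 100 nt, and quantified by RSEM. Cycloheximide was omitted. Tool versions are not given in the sources used here. The authors deposited expected counts as whole numbers per gene, with no scaling between libraries, and TPM values scaled within each library by RSEM.

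The 10 genes and all lists were chosen with earlier results of these data known. Genes with a mean of at least 2 TPM over the MEF or the NIH3T3 libraries were kept, TPM values under 4 were raised to 4, and Tg libraries were set against the untreated library of their genotype or line. A gene was called at 2-fold. Intervals (95%) are exact conditional binomial (Clopper-Pearson) for a ratio of counts per library total and Wald for a difference of changes. They cover counting error only. Conditions without replicates allow no test and no left-out replicate.

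Besides the 10 genes, the text names up to 3 genes per wider list with the largest absolute change among those with at least 100 counts in both libraries, the 3 genes most correlated with Sqstm1, Nbr1 and Wipi1, and stress reference genes. Calcoco1, Fam134b and Stx17 were named after their values were seen, as were genes labelled in the plot of autophagy genes at 8 h. No 22-base window of the 10 clipped coding sequences occurred in the coding sequence of another gene in the GENCODE annotation of GRCm38, the assembly of mm10. GC content was taken from the longest coding sequence of each symbol in that annotation and was known for 96.1% of the MEF genes.

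Alternatives were a floor of 1 TPM, log2(TPM + 1), a mean of at least 5 TPM, no filter, counts per library total, TMM factors (edgeR 4.0.16), DESeq2 size factors (1.42.0), thinning to the smallest library, removal of a lowess trend on GC content, and thresholds of 1.5- and 3-fold. Thinned counts come from 1 random draw. The calculations were tested on simulated data and used R 4.3.3 and Python 3.11.15 with scipy 1.17.1, statsmodels 0.14.6 and pandas 2.3.3. Promoters came from RefSeq (GRCm38.p6). Of the 22406 symbols, 25 look like dates and were kept as they stand.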

Additional observations from a re-analysis of the deposited data

Results flagged for a closer look

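Atg5 stood out because all 4 PERK WT Tg libraries lay below their control and all 4 PERK -/- Tg libraries above theirs. Its median change over the Tg libraries was -0.39 in PERK WT and 0.42 in PERK -/- MEFs on the log2 scale of TPM. Atg7 stood out in the same way between cell populations, since its median change was 0.50 over the 4 PERK WT MEF Tg libraries, all above the control, and -0.41 over the 2 NIH3T3 libraries, both below it. For Atg7 the change of counts at 1 h in PERK WT MEFs was 0.15 (-0.29 to 0.57). At 7 h in NIH3T3 cells it was -0.15 (-0.42 to 0.12). How many expressed genes share the Atg7 pattern was not counted. Neither the Atg5 nor the Atg7 difference was tested, as each condition is 1 library. The NIH3T3 cells also received a lower Tg dose and other times than the MEFs. Doses, times and cells cannot be told apart there.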

How the results depend on the processing

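No paired analysis was possible because each condition has 1 library and the labels carry no replicate numbers, and for the same reason none could be left out. Of the 100 changes of the 10 genes, 34 were at least 0.5 in size, and 0 of these changed sign under any of the 9 alternatives of floor, filter, scaling, depth or GC content. Of the 7 changes past 2-fold, 6 stayed past it as log2(TPM + 1) and with thinned counts, where Nbr1 at 5 h in PERK WT MEFs dropped under, and all 7 under the others. Sqstm1 at 2 h in NIH3T3 cells passed 2-fold with TMM (1.05), with DESeq2 factors (1.07), with the GC trend removed (1.13) and with thinned counts (1.01), and Atg12 in PERK WT MEFs passed it with thinned counts at 2 h (1.02) and 5 h (1.12).

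The number of genes up in any Tg library depended on the threshold. It was 2 in PERK WT MEFs, with 3 at 1.5-fold (beside 17.8% of expressed genes at 8 h) and 1 at 3-fold (1.61%). In PERK -/- MEFs it was 1, with 3 at 1.5-fold (12.5% at 8 h) and 0 at 3-fold (0.479%), and in NIH3T3 cells 1, with 2 at 1.5-fold (16.7% at 7 h). The number down was 0 at 2-fold, and at 1.5-fold 1 in PERK WT MEFs (12.3% at 2 h), 2 in PERK -/- MEFs (13.4% at 1 h, 18.8% at 2 h) and 4 in NIH3T3 cells (18.2% at 2 h). The median of all genes moved by over 0.1 at 2 h only. It did so in PERK -/- MEFs with DESeq2 factors (0.10) and with the GC trend removed (0.12). In NIH3T3 cells it did so with TMM (0.12), with DESeq2 factors (0.14) and with the GC trend removed (0.15). Without the filter the median was 0 in every comparison, so its moves there (0.11 and 0.13 in the same libraries) only mirror the filtered medians. Depth limits Atg12 and Gabarapl1 most, with 23 and 28 counts in their lowest library.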
